A study of Homo sapiens with 2 samples.

Results

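The genes described here are the MYC, MAX and MNT network, 10 genes whose products pair with MAX or with MLX: MYC, MAX, MNT, MXI1, MXD1, MXD3, MXD4, MGA, MLX and MLXIP. Every mTOR peak whose deposited nearest gene was one of them was collected, which gave 13 of 21440 peaks. The 10 genes were listed by name and selected on earlier results for these same peaks, namely the presence and score of peaks at the genes, so those values are a description with no test. The peaks come from chromatin immunoprecipitation and sequencing (ChIP-seq) with an antibody against mTOR in MDA-MB-231 cells, a long-established line from a human breast cancer of the triple-negative type, kept in medium with 10% serum, penicillin and streptomycin and no other stated treatment. A single mTOR library was compared with a single input library, which is chromatin without enrichment, so nothing was replicated. Peaks were listed for the mTOR library on the hg38 build. Depth is unknown because the list carries no read counts, so the precision of a single score cannot be given. Scores are the authors' own values on an unstated scale, ran from 13 to 5636 with a median of 61 over all peaks, and are used only to order peaks within this list.

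Proteins of this network share a basic helix-loop-helix leucine zipper, which lets them pair and bind DNA at E-boxes, short palindromic elements. MYC pairs with MAX and activates genes of growth and ribosome production, while MNT, the MXD proteins and MXI1 pair with the same MAX and recruit SIN3 corepressors to the same elements. MLX stands in for MAX in a parallel branch, where its partner MLXIP, also called MondoA, responds to glucose metabolites. The kinase mTOR adjusts cell growth, a process that MYC also drives, to the nutrients and growth signals at hand.

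Of the 10 genes, 6 were named as nearest gene of a peak and 5 had a promoter peak, which means that part of a peak assigned to the gene lay within 1 kb of its start site. Among all 19974 protein-coding genes, 41.7% were named as nearest gene and 15.5% had a promoter peak. The exact Clopper-Pearson 95% interval of 5 in 10 ran from 18.7 to 81.3% and covers counting error only. The 5 genes were MNT, MXI1, MGA, MAX and MLXIP in the order of their highest scores, and MYC had a peak beyond the window. MXD1, MXD3, MXD4 and MLX had no peak assigned. By the deposited promoter class 4 of the 10 had a promoter peak, against 12.0% of all protein-coding genes, and a peak overlapped the spans of 6, against 33.0%. MNT, MXI1, MGA and MLXIP were nearest to 2 or more peaks, as were 17.3% of all, and MGA and MLXIP to 3 or more, as were 8.00%. Scores of the 13 peaks ran from 30 to 1251 with a median of 49, and 8 of them lay under the median of all peaks. The strongest peaks of MNT and MXI1 stood above all others of the group.

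**Figure D1:**
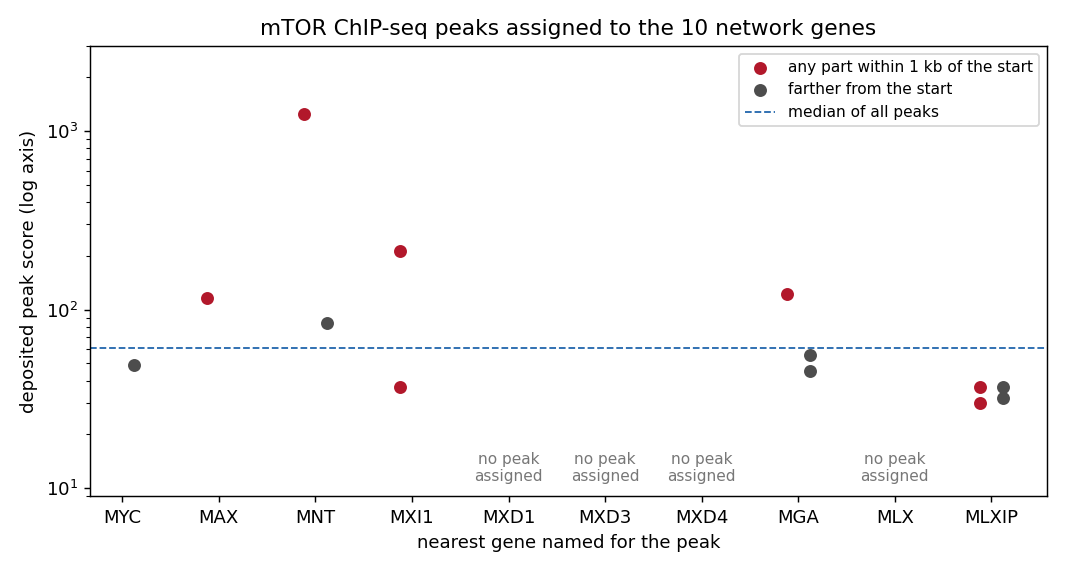
Deposited score of each of the 13 peaks (vertical, log axis) by the network gene named as nearest (horizontal). Red points are peaks with any part within 1 kb of the start, grey points lie farther away, and the dashed line is the median of all peaks, 61. MNT alone passes 1000, all MLXIP peaks lie below the line, and 4 genes have no peak.

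MNT, a repressor found in most cell types that competes with MYC for MAX, carried the strongest peak of the group. It covered chr17:2400473-2402195, was 1723 bp wide and had a score of 1251, higher than 99.8% of all peaks and 44th in the order of scores. Its centre lay 274 bp upstream of the start, which is at 2401060 on the minus strand, and the peak was wider than 99.0% of all peaks. Among the 3097 protein-coding genes with a promoter peak, MNT was number 11 by highest score. The genes next to it in this order were HYAL2 with 1268 and ITPRIP with 1259 above, and QRICH1 with 1141 and POC1B with 1131 below. With 1 library these scores have no spread, so which neighbours truly differ cannot be said. A second MNT peak lay inside the gene, in intron 4 of 5, at chr17:2392910-2393670, with a score of 84 and a centre 7770 bp downstream of the start. Its centre was labelled as a CpG island, a stretch rich in the dinucleotide CG.

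The MNT promoter is shown because all of its 300 bases lay under the strongest peak and because it holds an E-box. The sequence runs from 250 bases before the start to the start and the bases that follow, on the minus strand of chr17:2401011-2401310 (RefSeq, GRCh38.p14), with the E-box in capitals. This CACGTG begins 193 bases upstream of the start and lay 83.5 bp from the centre of the peak.
MNT: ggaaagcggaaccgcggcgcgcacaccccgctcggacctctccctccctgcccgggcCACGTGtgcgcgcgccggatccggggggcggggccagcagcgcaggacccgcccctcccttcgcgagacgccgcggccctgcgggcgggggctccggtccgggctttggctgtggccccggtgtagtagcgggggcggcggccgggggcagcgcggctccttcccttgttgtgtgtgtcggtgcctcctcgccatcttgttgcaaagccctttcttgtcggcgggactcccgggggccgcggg

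MXI1, a MAX partner that opposes MYC, had peaks at separate promoters of unequal score. The stronger had a score of 213, above 90.8% of all peaks, and covered chr10:110225710-110226075, a narrow 366 bp centred 104 bp upstream of the start at 110225996. The weaker had a score of 37 and covered chr10:110209425-110209777, centred 630 bp upstream of another start at 110210231, and ended before the 300-base promoter window of that start. These starts are 15765 bp apart and begin different transcripts of the gene. The remaining start in the RefSeq table, at 110207605, had no peak over its window either. A peak of score 427, higher than either of these, lay 43027 bp beyond the end of the gene and was assigned to SMNDC1.

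The window of the downstream MXI1 start is shown because it lay whole under the 213 peak and holds the letters ACTACA, any 3 bases and then CCC, the core of the element that RONIN (THAP11) and ZNF143 are known to bind. RONIN is the DNA-binding protein named with mTOR and PML in the title of the series. The sequence is the plus strand of chr10:110225746-110226045 (RefSeq, GRCh38.p14), with that element in capitals. It begins 89 bases upstream of the start, and its middle was 20 bp from the centre of the peak.
MXI1: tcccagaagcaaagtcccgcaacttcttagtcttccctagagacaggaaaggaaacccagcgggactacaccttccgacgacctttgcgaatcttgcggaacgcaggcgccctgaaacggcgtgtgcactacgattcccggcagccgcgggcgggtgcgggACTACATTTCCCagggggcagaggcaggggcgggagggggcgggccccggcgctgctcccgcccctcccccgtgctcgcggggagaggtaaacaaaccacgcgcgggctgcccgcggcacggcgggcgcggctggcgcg

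MGA, a large protein that pairs with MAX and is part of a Polycomb-type repressor complex, had 3 peaks close to its internal start. The strongest, with a score of 123, covered chr15:41660441-41661105 in intron 1 of 23, with its centre 361 bp downstream of the assigned start and its edge 28.5 bp from it. A weaker one of score 45 followed at chr15:41661732-41662003, centred 1455 bp downstream of the assigned start. The RefSeq table also lists a start at 41660747, which lies inside the strongest peak and nearer to the centres of both. Both centres were labelled as CpG island. The remaining one, of score 56, lay 4214 bp upstream over an L2b repeat at chr15:41656022-41656374. It was deposited as intergenic, but the RefSeq span of MGA begins farther upstream, at 41621224, and takes it in. No peak lay at that far upstream start.

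MAX, the partner that MYC and its antagonists share, had a single peak, and that peak crossed its start. It covered chr14:65102332-65102952 with a score of 116, higher than 78.2% of all peaks, and its centre was 53 bp downstream of the start. The next peak outside the gene was 125162 bp away, and the body of the gene, which spans 96595 bp, held no other. MAX and MGA were thus close in the order of promoter scores, at places 642 and 608 among 3097 genes.

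MYC, the activator of the network, had a peak of a different kind, wide but of low score and within the gene. It covered chr8:127737758-127739197 in exon 2 of 3, with its centre 2246 bp downstream of the assigned start. At 1440 bp it was wider than 97.9% of all peaks, while its score of 49 was higher than only 39.0% of them. Exon peaks as a class were wide, with a median of 721 bp, and 81.6% of them were narrower than the one in MYC. The nearest edge of the MYC peak was 1526 bp from the assigned start, outside the 1 kb window. The RefSeq span of MYC begins farther upstream, at 127735434, and both offsets would be larger from there. Just inside the 1 kb window were the second peaks of MLXIP and MXI1, with edges at 436 and 453.5 bp. Just outside was the 45 peak of MGA, at 1319 bp from its assigned start. Another listed MGA start, at 41660747, is nearer, and measured from it that peak would fall inside the window. Beyond the MYC gene, 4 peaks within 100 kb were assigned to MIR1204 and lay in introns of the noncoding RNA gene PVT1. The first began 65609 bp past the end of MYC with a score of 40, and the strongest, 92431 bp away, had 97.

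MLXIP, the nutrient-sensing partner of MLX, had the most peaks, 4, and all of them were weak. Only 4.17% of protein-coding genes were nearest to 4 or more peaks. Its promoter peak covered chr12:122078467-122078911, centred 67 bp upstream of the start, with a score of 37, which is higher than 21.2% of all peaks. A second, of score 30, followed in intron 1 at chr12:122079193-122079606. The others lay deeper in intron 1, at chr12:122094218-122094506 and chr12:122094795-122095078, 15606 and 16180 bp from the start, with scores of 32 and 37. Both of these were centred on a simple repeat of GT units, with 288 bp between them. Simple repeats of any unit lay under 0.597% of all peaks, and how reads in them were aligned is not given in the sources used here.

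**Figure D2:**
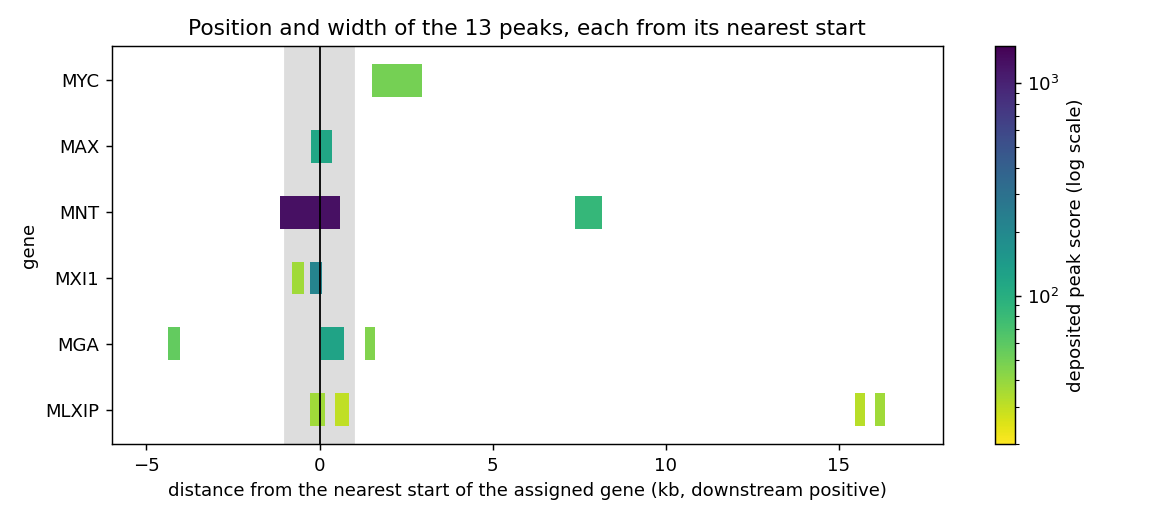
Position and width of the 13 peaks (horizontal, kb from the assigned start, downstream positive) for the 6 genes that had any. Colour gives the score on a log scale and grey shading marks 1 kb either side of the assigned start. The MNT peak is the widest and darkest, the MYC peak lies wholly outside the shading, and the MXI1 peaks belong to starts 15765 bp apart.

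MXD1, MXD3, MXD4 and MLX were the genes with no peak assigned, and no peak overlapped their spans. MXD1, a repressor that rises as cells differentiate, had its nearest peak 3465 bp past the gene, with a score of 35, and a stronger one of 139 at 4165 bp, both assigned to ASPRV1. For MXD3, an MXD protein linked to proliferating cells, a peak of score 35 lay 204 bp beyond its end at chr5:177304914-177305295. It was deposited in the class of transcript ends, on an MXD3 transcript, yet assigned to PRELID1, whose start was nearer. MXD4 was the most isolated of these, with the nearest peak 65540 bp away. MLX, the common partner of the nutrient branch, had a pair of peaks 4160 and 4861 bp upstream that were assigned to COASY, a coenzyme A synthesis gene. The second of them had a score of 321 and lay at the COASY promoter. A missing peak here says that none was called in this library, and whether these loci are intact in the cell line was not tested.

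The promoters of MLX and MXD4 are shown because they hold the same E-box letters as MNT but had no peak. The MLX window is the plus strand of chr17:42566850-42567149 and the MXD4 window the minus strand of chr4:2262060-2262359 (RefSeq, GRCh38.p14), with CACGTG in capitals. It begins 50 bases upstream of the start in MLX and 238 bases upstream in MXD4.
MLX: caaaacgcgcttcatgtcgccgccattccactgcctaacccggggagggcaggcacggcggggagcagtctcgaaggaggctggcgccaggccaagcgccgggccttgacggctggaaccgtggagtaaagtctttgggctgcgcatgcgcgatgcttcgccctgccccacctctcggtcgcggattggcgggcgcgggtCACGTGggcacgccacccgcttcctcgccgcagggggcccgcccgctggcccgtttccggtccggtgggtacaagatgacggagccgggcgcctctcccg
MXD4: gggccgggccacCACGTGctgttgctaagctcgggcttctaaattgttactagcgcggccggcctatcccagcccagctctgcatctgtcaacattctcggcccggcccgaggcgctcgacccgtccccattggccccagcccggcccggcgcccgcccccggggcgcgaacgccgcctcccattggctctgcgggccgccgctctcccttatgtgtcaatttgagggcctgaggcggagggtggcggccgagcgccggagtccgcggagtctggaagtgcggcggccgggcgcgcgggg

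RefSeq windows of 300 bases were at hand for 9 of the 10 genes, at 14 starts, and MYC was the gene without one. A peak overlapped 6 of the 14 windows, against 12.1% of 22132 windows of protein-coding genes. Those windows belong to 15812 of the 19974 protein-coding genes. Of 2652 deposited distances of at most 1 kb for these genes, 76.0% matched a listed start to within 1 bp. The 6 belonged to MNT, MLXIP, MXI1, MAX and, at neighbouring starts, MGA. At MGA the same peak of score 123 covered all 300 bases at the start 41660747 but only 14 at the start 41660405. The MAX window begins at a start downstream of the one named in the deposited list, and the peak covered 202 of its 300 bases. Both sets of windows were rich in G and C, with 63.3 to 76.0% (median 67.7%) under peaks and 55.0 to 75.3% (median 66.8%) elsewhere. The count of CG dinucleotides ran from 21 to 43 with a median of 34 in the 6 windows under peaks, and from 12 to 37 with a median of 21 in the other 8. Over all protein-coding windows the medians were 27 under peaks and 19 elsewhere.

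Matches of 3 sequence elements were searched on both strands of these windows, and a match describes letters, not a bound site. The E-box CACGTG occurred in 3 of the 14 windows, those of MNT, MLX and MXD4, and in 8.34% of all windows. Of all windows with an E-box, 17.5% (exact Clopper-Pearson 95% interval 15.8 to 19.3%) were overlapped by a peak, against 11.6% (11.2 to 12.1%) of those without. The RONIN-type element occurred in 1 window, that of MXI1, and in 2.86% of all. Of all windows with it, 39.4% (35.6 to 43.4%) were overlapped by a peak, against 11.3% (10.9 to 11.7%) of the rest. The ETS-type element CCGGAAG, present in 12.8% of windows, was found at a MAX start without a peak, 106 bases upstream. A peak overlapped 23.1% (21.6 to 24.7%) of all windows with it, against 10.49% (10.06 to 10.93%) of the rest. Base composition moved with the peaks too, with a median G and C content of 65.7% in windows under peaks and 61.7% in the others, and its part in these shares was not tested. The windows of MLXIP, MGA and MAX that peaks overlapped held none of the 3 elements.

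**Figure D3:**
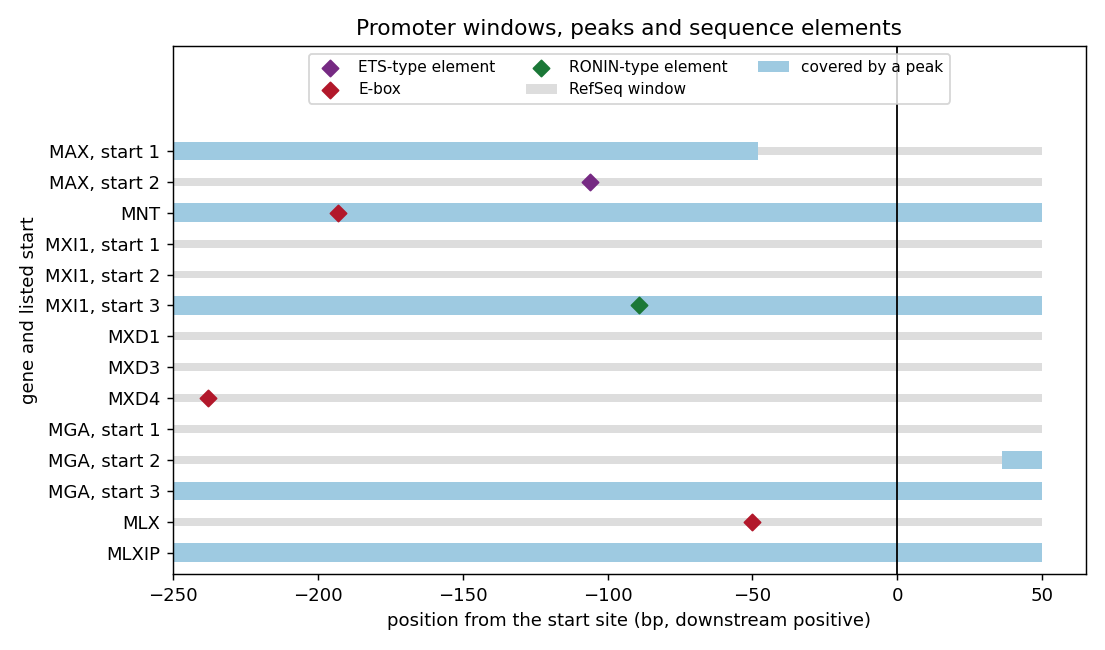
The 14 RefSeq promoter windows of 9 network genes (rows, starts numbered along the direction of the gene), with position from the start site in bp (horizontal, downstream positive). Blue marks the part covered by a peak and diamonds the first base of each element. An E-box lies under a peak at MNT but not at MLX or MXD4, and the RONIN-type element lies under the peak at the MXI1 start farthest downstream.

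The 13 peaks lay mostly in and around the genes themselves. Promoter peaks made up 7 of the 13, and 15.6% of all peaks were promoter peaks of protein-coding genes. By deposited class 5 lay at promoters, 6 in introns, 1 in an exon and 1 in intergenic sequence, a class that held 43.6% of all peaks. The shares of the promoter, intron and exon classes over all peaks are not given here. Repeats were under 3 of the 13 centres (23.1%, exact Clopper-Pearson 95% interval 5.04 to 53.8%) and under 64.4% of all. Each peak carries 1 detailed label, and the 5 promoter-class peaks and 1 exon peak of the group carried their class there. No repeat label showed on them, and the part of class mix in these shares was not tested. CpG island labels were on 3 of 13, those of MNT intron 4 and of MGA, and on 3.18% of all peaks. These labels stand in the same place as the class, so a promoter-class peak without one may still lie in an island. The windows under the promoter peaks of MNT, of MXI1 at its downstream start and of MLXIP held 40, 35 and 43 CG dinucleotides. MXI1 and MLXIP each had 2 promoter peaks, and 7.10% of the 3097 protein-coding genes with any had 2 or more. Within 100 kb of the gene spans the number of peaks ran from 1 at MAX to 10 at MLXIP, where the median protein-coding gene had 2. Fewer than 10 were found around 94.2% of protein-coding genes.

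**Figure D4:**
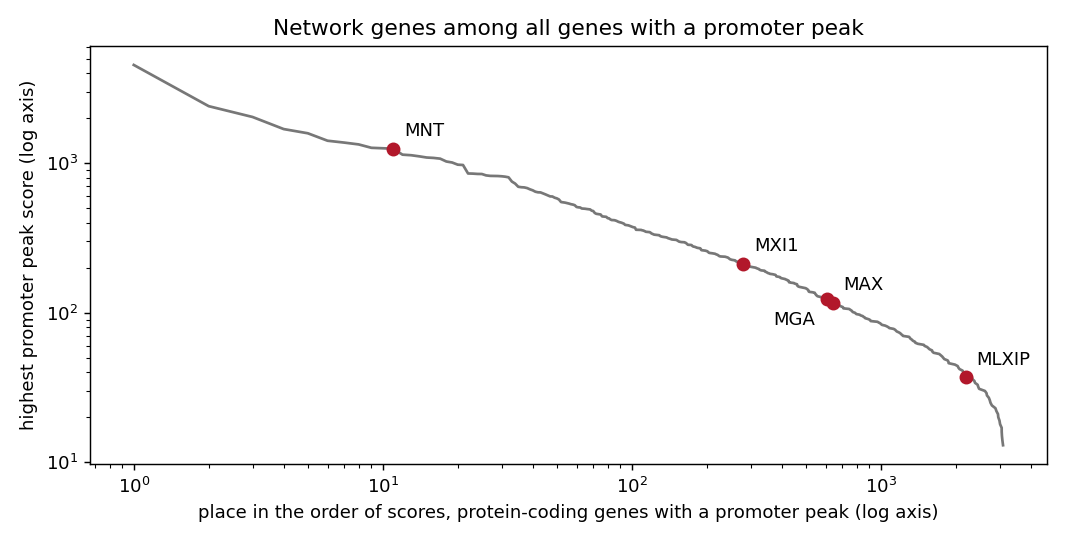
Highest promoter peak score (vertical, log axis) against place in the order (horizontal, log axis) for the 3097 protein-coding genes with a promoter peak, with the 5 network genes in red. MNT stands at place 11, MXI1 at 280, MGA and MAX side by side at 608 and 642, and MLXIP at 2191.

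Genes that work with this network were described from a list of 42, of which 14 had a promoter peak (33.3%, exact Clopper-Pearson 95% interval 19.6 to 49.5%) against the same 15.5% of all protein-coding genes. The list was chosen with earlier results of these data known, so its shares are a description with no test. Their intervals cover counting error only. Corepressors, coactivators and other MAX or MYC partners, a group in which the MYC target TFAP4 was also listed, had 9 of 17. E2F6, a repressor found in the same complex as MGA, led them with a score of 639 at chr2:11465357-11466365, centred 300 bp downstream of its start. HDAC2, a histone deacetylase of SIN3 complexes, followed with 335 at chr6:113971111-113971779, while the related HDAC1 had 17. SIN3A, the corepressor scaffold, had no peak assigned, and its paralogue SIN3B had one of score 343 that lay 39947 bp from its start. TFAP4, a transcription factor gene known as a MYC target, had 126. PCGF6 and L3MBTL2 encode further subunits of the MGA complex, and PCGF6 had a promoter peak of score 106 while L3MBTL2 had a peak of 106 outside the window, 2055 bp from its start. ZBTB17, the MYC-binding zinc finger protein MIZ-1, had 87.

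Targets long used as readouts of MYC and MAX had a promoter peak in 4 of 10, against 15.5% of all protein-coding genes. The exact Clopper-Pearson 95% interval of 4 in 10 ran from 12.2 to 73.8% and takes in that share. It covers counting error only and is no test, because these genes too were listed with earlier results known. The mitochondrial chaperonin gene HSPD1 had 1092, ODC1, which starts polyamine synthesis, had 149, NPM1, a nucleolar protein gene, had 137, and LDHA, for lactate dehydrogenase, had 64. CAD, NCL, CDK4, CCND2 and FBL had no peak assigned, and TERT had one of score 18 that lay 27449 bp from its start. Whether other genes start beside these peaks was not searched. Of the MondoA and MLX targets ARRDC4 had a promoter peak of score 53 and TXNIP had none. Genes of MYC turnover and the kinases listed with them had 0 of 10, against the same 15.5%. That count allows a share of up to 30.8% by its exact 95% interval and up to 30.0% by 3 counts of the total. The paralogues also had 0 promoter peaks in 3, which allows a share of up to 70.8% by the exact 95% interval. MYCL had an intergenic peak of score 45 over a retroviral MER77B repeat 6539 bp upstream, MLXIPL, the MLXIP paralogue known as ChREBP, had 66 in intron 7, and MYCN had no peak assigned.

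**Figure D5:**
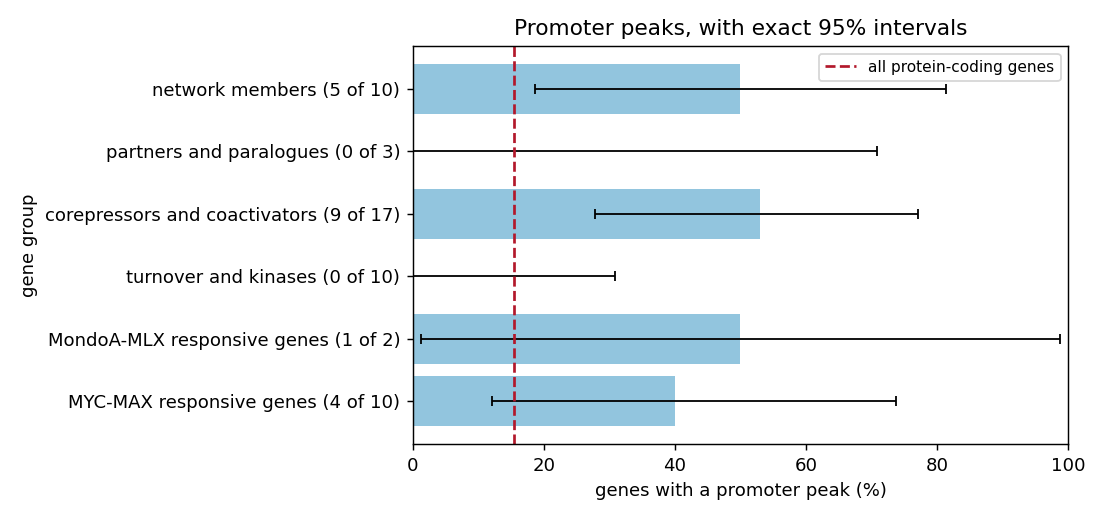
Share of genes with a promoter peak (horizontal, %) in the 10 network genes and 5 groups of related genes, with exact 95% intervals that cover counting error only. The dashed line is the share of all protein-coding genes, 15.5%. Of the network genes 5 in 10 had one, and the intervals of the smallest groups span most of the axis.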

How the data were processed

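Cross-linked chromatin was immunoprecipitated with an mTOR antibody and sequenced as paired 150-base reads, per the labels' protocols. Trimmomatic 0.36, BWA 0.7.12, Picard 2.0.1, HOMER 4.11.1, MACS2 2.1.1.20160309 and, as build, hg38 appear with no settings, per the submitters' processing notes. The peak threshold and the handling of duplicate or repeat reads were not given in the sources used here. The authors deposited a table of 21440 annotated peaks, each with a score on an unstated scale. Each also has a signed distance in bp from its centre to the start it was assigned. The input library's own data were not used here.

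Peaks were assigned to genes by the deposited name, so the alias MLX of MLXIPL was not counted. Width is end minus start plus 1. A promoter peak had any part within 1 kb of the assigned start, by deposited distance and width. The percentile of a score is the share of peaks with a lower score. Gene spans and promoter windows came from RefSeq on GRCh38.p14, whose chromosome coordinates are those of hg38. Shares have exact Clopper-Pearson 95% intervals. Promoter calling and the search for the RONIN-type element were run on simulated data with planted answers. The planted distances lay well inside or well outside the 1 kb limit, so calls near it and the naming of genes were not checked.

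Members and lists were chosen with earlier results of these data known, and no test was made. The genes named are all members, the MYC paralogues, the 5 related genes with the highest promoter scores, the 4 nearest to MNT by score and genes beside member peaks. HDAC1, TFAP4, PCGF6, L3MBTL2, ZBTB17, LDHA, ARRDC4, SIN3A, SIN3B and TXNIP were chosen after their values were seen. So were CAD, NCL, CDK4, CCND2, FBL and TERT. Versions were matplotlib 3.10.9, scipy 1.17.1, numpy 2.4.6 and pandas 2.3.3 under Python 3.11.15.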

Additional observations from a re-analysis of the deposited data

How the results depend on the processing

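With 1 library, 1 score per peak and no read counts, the spread between samples and the effect of depth could not be assessed. No control antibody was at hand to compare with. No paired analysis was possible because each group had 1 sample and no test was made. Among the 2144 top-scoring peaks only MNT and MXI1 remained, so the members with a promoter peak fell to 2 (background 1.57%) and those named as nearest gene to 2 (background 7.02%). A window of 5 kb added MYC and gave 6 (background 20.3%). The count was 4 with the deposited promoter class, which lost MGA (12.0%), with the higher-scoring 10720 peaks, which lost MLXIP (7.45%), and with windows at either end of the RefSeq span, which lost MXI1 and MGA and gained MXD3 (19.2%). It stayed at 5 with windows of 100 bp (10.9%), peak centres within 1 kb (15.0%) and repeat-labelled peaks left out (15.1%). Of the 42 related genes 12 to 16 had a promoter peak, with backgrounds from 7.45 to 20.3%. With CACGCG and CATGTG searched beside CACGTG, the members with a match in any window rose from 3 to 6 of 9. Of all single windows 28.4% matched, an unlike measure, since a gene with several windows has more places to match. Among peaks without a repeat label the score percentiles were 99.62 for MNT, 90.32 for MXI1, 43.92 for MYC and 26.29 for MLXIP. Among peaks of the same class they were 90.28 for MXI1, 82.39 for MGA, 77.62 for MAX and 23.27 for MLXIP. Chosen after the data were seen, leaving out simple repeats took the share of member peaks over a repeat from 23.1 to 7.69%, and 1 window per gene left 3 members with an E-box.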
